A study of Homo sapiens with 39 samples.

Results

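The genes described here are 40 members of the MYC network, of the nucleolus and of the RNA polymerase I system, followed through prostate cancer cells given an androgen receptor pathway inhibitor (ARPi), a PARP inhibitor (PARPi), or both. They were taken by name from a fixed list after the Ensembl identifiers of the deposited count table had been paired with gene symbols. All 40 were found among 63187 genes in the table, and 39 passed the filter on low counts in each experiment. MYCN was the exception, with 0 counts in all 21 libraries of the first experiment and 1 count in 1 of the 18 libraries of the second. By role, the 39 tested genes were 6 of the MYC network (MYC, its partner MAX, and the repressors MXD1, MXD4, MXI1 and MNT) and 33 of ribosome biogenesis. The latter were 4 nucleolar chaperones, 7 core proteins of small nucleolar ribonucleoproteins (snoRNPs), 6 genes of pre-ribosomal RNA (pre-rRNA) and small subunit processing, 9 of large subunit processing, 5 of RNA polymerase I and its control, and 2 growth-linked regulators.

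All 39 libraries came from C4-2B, an established castration-resistant human prostate cancer line that still expresses the androgen receptor, grown in medium with fetal bovine serum and treated on the day after plating. In the drug panel, cells were treated for 5 days with DMSO, abiraterone (given as abiraterone acetate) at 5 µM, enzalutamide at 20 µM, olaparib at 1 µM, talazoparib at 10 nM, abiraterone + olaparib, or enzalutamide + talazoparib, the combinations at the doses of the single drugs, with 3 libraries per group labelled A, B and C. In the time course, cells received DMSO, olaparib at 1 µM or olaparib at 5 µM and were collected at day 1 or day 5, with 3 libraries per group labelled 1, 2 and 3. The cells are all of 1 line, and the labels do not say whether the 3 libraries of a group came from separate cultures, so the p-values measure only the spread between these libraries, which may be technical.

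Total counts ranged from 26932205 to 49833473 in the panel and from 34214001 to 44893664 in the time course, and the 40 genes took between 0.572% and 0.853% of them. All 10 luminal prostate markers on the list used here passed the filter, among them KLK3 (prostate-specific antigen). Of 13 markers of basal, stromal, immune, endothelial and liver cells, KRT5, TP63, COL1A2, DCN, CD3E, PECAM1 and ALB did not exceed 0.268 CPM (counts scaled to a fixed library total) in any library, whereas COL1A1 ran from 10.5 to 22.1 CPM, VWF from 7.48 to 22.5 and CD68 from 2.47 to 29.6. KRT14 reached 1.91 CPM, PTPRC 1.17 and ACTA2 4.58 in their highest library. The summed level of those 13 markers was 30.2 to 38.3 CPM in the panel's DMSO libraries, 33.4 to 34.1 with enzalutamide, 44.2 to 45.7 with abiraterone, 46.2 to 47.2 with olaparib, 42.1 to 43.9 with talazoparib, 50.8 to 54.3 with abiraterone + olaparib and 44.4 to 45.2 with enzalutamide + talazoparib. At day 1 of the time course it was 28.6 to 31.01 CPM in DMSO, 33.8 to 36.4 with 1 µM olaparib and 38.2 to 40.7 with 5 µM, and at day 5 it was 28.6 to 29.6 CPM in DMSO, 41.1 to 42.1 with 1 µM olaparib and 54.96 to 56.1 with 5 µM. Its part in the results was not tested. The androgen-responsive KLK3 fell with abiraterone (log2 fold change -1.58 ± 0.05) and with enzalutamide (-2.25 ± 0.05), and CDKN1A, the cell cycle inhibitor p21, rose with olaparib (2.18 ± 0.05) and with talazoparib (1.98 ± 0.05).

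MYC is a transcription factor that binds DNA as a heterodimer with MAX, mostly at the E-box CACGTG, and is known for driving genes of cell growth, above all those that build ribosomes. MXD1, MXD4, MXI1 and MNT compete for MAX and repress the same kind of sites. Ribosomes are assembled in the nucleolus, where RNA polymerase I transcribes the pre-rRNA, snoRNPs guide its modification and cleavage, and a succession of assembly factors builds the small and the large subunit. In luminal prostate cancer cells both the androgen receptor and MYC are known regulators of growth.

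Because the E-box is the DNA site known for MYC, MAX and the repressors, promoters of members that hold it are shown first. In the RefSeq promoter table (GRCh38.p14, 250 bases before to 50 after each start), 34 of the 40 genes were present, and 15 of them (44.1%) had CACGTG in at least 1 promoter, against 2396 of 27305 genes in the whole table (8.77%). CACGTG reads the same on both strands, so both are covered by 1 search. Among promoters at least as rich in CG as the median member, 1032 of 9879 (10.4%) had it. Counted in the same way, per promoter, the members had it in 15 of 44 (34.1%), and all promoters in 2546 of 35093 (7.26%). A match describes these letters only and shows no binding. Below are the promoters of LYAR, UTP20, RRP9 and DDX21, which recur among the leading genes in the comparisons that follow, and of the repressor MXD4. They were picked for holding CACGTG. NOP16, NPM3, NPM1, NCL, PPAN, POLR1A, POLR1C, PPRC1 and PA2G4, which also lead comparisons, have none in these windows. The capitals mark CACGTG, and its first base lies at -64, -10, -5, -31 and -238 from the start, in that order. LYAR and DDX21 each have another promoter in the table, without CACGTG.
LYAR (chr4:4289972-4290271, minus strand): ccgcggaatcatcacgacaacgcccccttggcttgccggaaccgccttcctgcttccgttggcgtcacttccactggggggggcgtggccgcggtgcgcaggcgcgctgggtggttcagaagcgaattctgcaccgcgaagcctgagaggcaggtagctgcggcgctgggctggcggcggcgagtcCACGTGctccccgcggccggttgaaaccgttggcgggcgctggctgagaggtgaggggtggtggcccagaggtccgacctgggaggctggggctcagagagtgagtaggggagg
UTP20 (chr12:101279855-101280154, plus strand): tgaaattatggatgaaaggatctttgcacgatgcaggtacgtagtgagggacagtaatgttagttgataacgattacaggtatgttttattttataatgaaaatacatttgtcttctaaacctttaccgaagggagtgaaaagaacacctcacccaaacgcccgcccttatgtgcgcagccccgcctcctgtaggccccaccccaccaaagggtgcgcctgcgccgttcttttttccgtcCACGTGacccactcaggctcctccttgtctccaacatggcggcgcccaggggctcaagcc
RRP9 (chr3:51941855-51942154, minus strand): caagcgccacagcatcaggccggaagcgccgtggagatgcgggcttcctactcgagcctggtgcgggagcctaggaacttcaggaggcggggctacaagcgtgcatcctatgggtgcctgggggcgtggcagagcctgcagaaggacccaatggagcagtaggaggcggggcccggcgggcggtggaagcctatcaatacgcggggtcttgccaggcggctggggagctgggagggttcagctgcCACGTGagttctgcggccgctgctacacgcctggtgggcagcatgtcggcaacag
DDX21 (chr10:68956397-68956696, plus strand): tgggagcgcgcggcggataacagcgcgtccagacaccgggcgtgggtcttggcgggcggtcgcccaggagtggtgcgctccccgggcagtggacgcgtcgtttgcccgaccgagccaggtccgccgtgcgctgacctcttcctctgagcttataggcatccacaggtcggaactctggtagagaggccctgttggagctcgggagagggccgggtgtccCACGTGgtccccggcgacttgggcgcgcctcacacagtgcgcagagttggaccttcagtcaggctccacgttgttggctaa
MXD4 (chr4:2262060-2262359, minus strand): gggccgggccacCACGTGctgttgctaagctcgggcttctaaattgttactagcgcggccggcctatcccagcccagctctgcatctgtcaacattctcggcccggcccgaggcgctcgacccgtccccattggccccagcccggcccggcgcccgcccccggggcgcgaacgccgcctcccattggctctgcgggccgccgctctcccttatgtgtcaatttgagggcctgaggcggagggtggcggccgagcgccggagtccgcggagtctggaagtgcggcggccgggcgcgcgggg

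In untreated cells the members spanned a wide range of abundance. Divided by exon length, the panel's DMSO libraries had NPM1 (nucleophosmin, a histone chaperone of the nucleolus) at 223 ± 4.44 CPM per kilobase (mean ± SD, n = 3) and NCL (nucleolin) at 152 ± 6.49, ahead of every other member. MYC, at 22.8 ± 2.00, ranked 17 of the 40, next to the methyltransferase NOP2 at 22.8 ± 2.25, from which it did not differ beyond the spread. The 4 repressors lay lower, with MXI1 at 8.45 ± 0.494, MXD4 at 7.01 ± 0.216, MNT at 5.14 ± 0.285 and MXD1 at 1.29 ± 0.168 CPM per kilobase, and MAX was at 8.06 ± 0.228.

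MYC moved in opposite directions under the 2 drug classes at 5 days. Levels here and above are CPM after TMM scaling, and changes are log2 fold changes ± SE from edgeR. From here on levels are given per library in the order A, B, C or 1, 2, 3. DMSO libraries held MYC at 153, 137 and 128 CPM, abiraterone libraries at 111, 102 and 103 and enzalutamide libraries at 104, 92.5 and 97.3. Both ARPi groups lay below every DMSO library, with changes of -0.40 ± 0.06 (adjusted p = 2.39e-05) for abiraterone and -0.51 ± 0.06 (adjusted p = 1.38e-06) for enzalutamide. Olaparib libraries had 181, 165 and 170.0 CPM and talazoparib libraries 185, 182 and 180.1, all above the DMSO libraries. Their changes were 0.31 ± 0.06 (adjusted p = 4.99e-04) and 0.39 ± 0.06 (adjusted p = 5.06e-05). With the combinations MYC was back below DMSO, at 119, 110.3 and 116 CPM with abiraterone + olaparib (-0.28 ± 0.06, adjusted p = 7.08e-04) and 117, 105 and 106 with enzalutamide + talazoparib (-0.34 ± 0.06, adjusted p = 8.01e-05). Talazoparib added to enzalutamide raised MYC by 0.16 ± 0.06 (adjusted p = 0.0456), a call lost with total count scaling and without enzalutamide B, enzalutamide C or combination A (0.12 to 0.16). Olaparib added to abiraterone left a difference of 0.12 ± 0.06 (adjusted p = 0.153), which passed with no filter, with the replicate block or with only the groups compared. Neither combination departed from the sum of its single drugs for MYC beyond the threshold, the departures being -0.18 ± 0.09 (adjusted p = 0.186) and -0.23 ± 0.08 (adjusted p = 0.0955), although both passed with no filter, with the replicate block or without DMSO A.

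**Figure D1:**
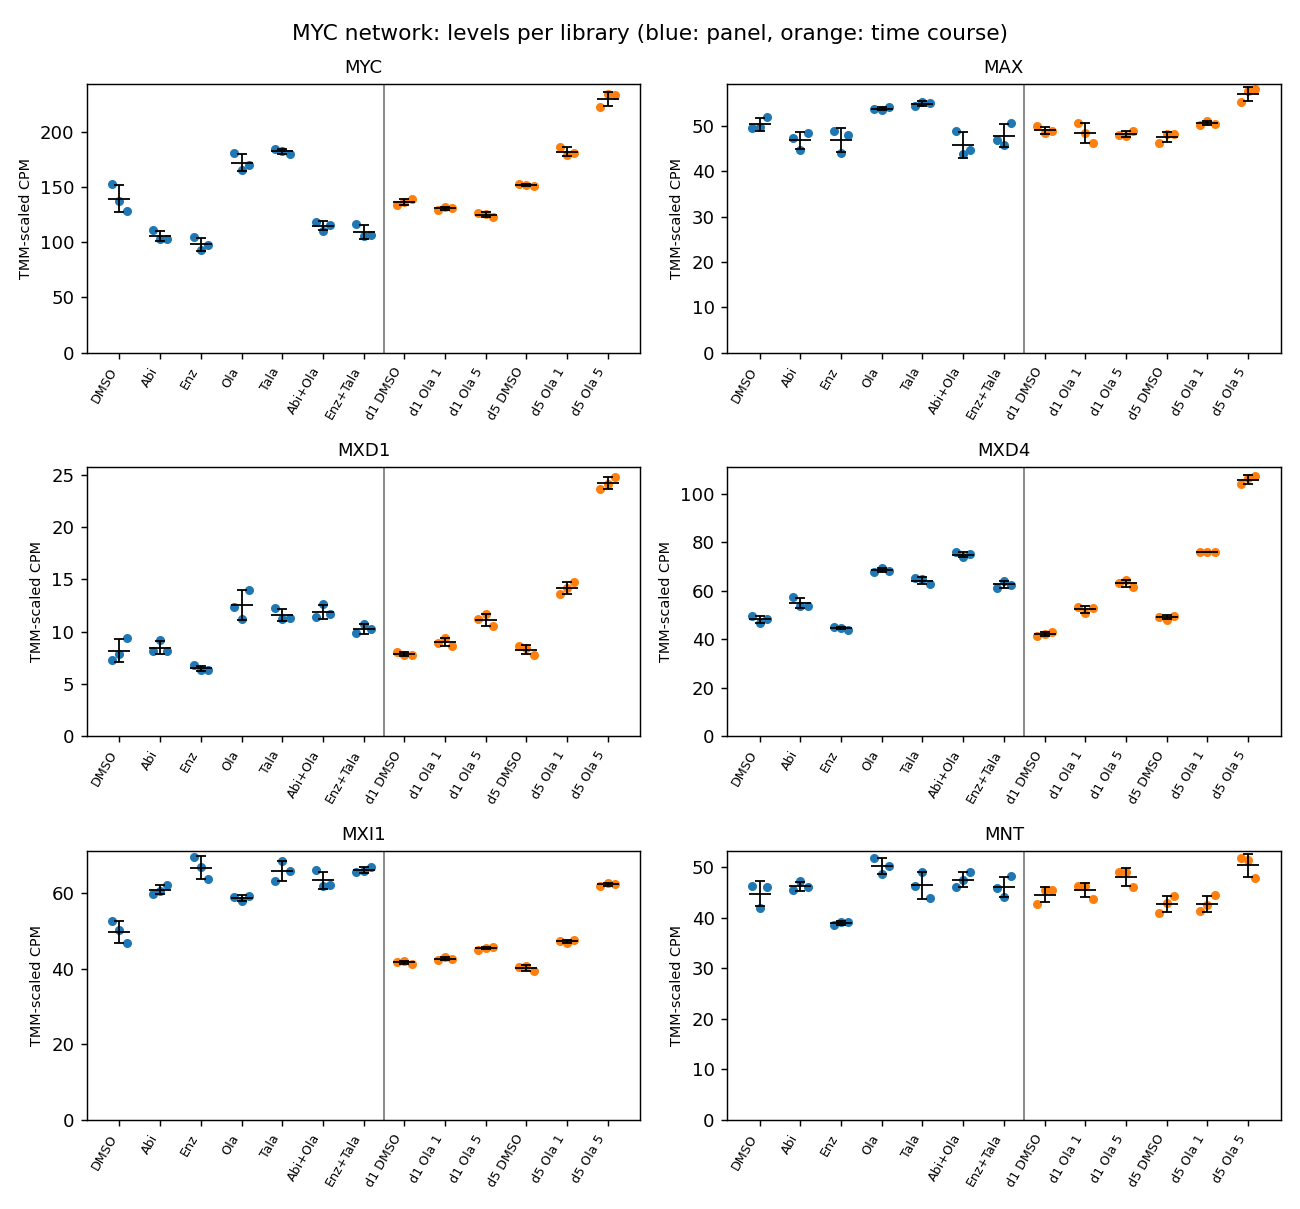
Levels (TMM-scaled CPM) of the 6 detected MYC network genes in every library of the 13 groups, with points for libraries and bars for the mean ± SD (n = 3), panel in blue and time course in orange. MYC is lowest in the ARPi and combination groups of the panel and highest with 5 µM olaparib at day 5 (223 to 234 CPM), where MXD1 and MXD4 are also at their highest.

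The partner MAX changed little. Its DMSO libraries had 49.5, 49.7 and 52.1 CPM, and the changes were -0.11 ± 0.05 (adjusted p = 0.0480) with abiraterone, -0.11 ± 0.05 (adjusted p = 0.0461) with enzalutamide and 0.12 ± 0.04 (adjusted p = 0.0312) with talazoparib. These calls were near the threshold. The abiraterone call was lost without DMSO B, DMSO C, abiraterone A or abiraterone B (-0.12 to -0.08), the enzalutamide call without DMSO B, DMSO C or enzalutamide B (-0.12 to -0.06), and the talazoparib call without DMSO A, DMSO B or any talazoparib library (0.10 to 0.11). DESeq2 and RLE scaling also ended the abiraterone call, and total count scaling ended all 3. With abiraterone + olaparib MAX changed by -0.14 ± 0.05 (adjusted p = 0.00815), a call lost without combination B (-0.11). With olaparib MAX changed by 0.09 ± 0.05 (adjusted p = 0.114), and with enzalutamide + talazoparib by -0.08 ± 0.04 (adjusted p = 0.123), neither of which passed.

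In the panel the repressors rose with PARPi, apart from MNT with talazoparib. MXD1, a repressor induced as cells stop dividing, went from 7.30, 7.89 and 9.37 CPM in DMSO to 12.4, 11.2 and 14.01 with olaparib (0.61 ± 0.09) and 12.3, 11.2 and 11.3 with talazoparib (0.49 ± 0.09). All 6 treated libraries were above the DMSO libraries. MXD4 went from 49.6, 46.7 and 48.3 CPM to 67.8, 69.4 and 68.3 (0.51 ± 0.04) and 65.1, 64.8 and 62.6 (0.41 ± 0.04), again without overlap. MXI1 rose with each of the 6 panel treatments, from 0.24 ± 0.04 with olaparib to 0.42 ± 0.04 with enzalutamide, the DMSO libraries being at 52.6, 50.3 and 46.8 CPM and the enzalutamide libraries at 69.8, 67.01 and 63.8. MNT, a broadly expressed repressor, rose with olaparib (0.17 ± 0.04, adjusted p = 0.00295), and its change with talazoparib was 0.05 ± 0.04 (adjusted p = 0.396). The difference between talazoparib and olaparib for MNT was -0.12 ± 0.04 and did not pass the threshold (adjusted p = 0.103).

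With ARPi the repressors did not share a direction. Abiraterone raised MXD4 by 0.19 ± 0.04 and MXI1 by 0.29 ± 0.04, and left MXD1 at 8.11, 9.21 and 8.10 CPM (0.04 ± 0.09, adjusted p = 0.744). Enzalutamide lowered MXD1 to 6.77, 6.34 and 6.32 CPM (-0.35 ± 0.09, adjusted p = 0.00218), and the changes of MNT and MXD4 were -0.20 ± 0.05 and -0.11 ± 0.04. The MXD1 call was lost without DMSO C (-0.24), and the MXD4 call was lost with total count scaling or with no filter. With the combinations MXD1, MXD4 and MXI1 were higher than in DMSO, by 0.53, 0.64 and 0.35 with abiraterone + olaparib and by 0.32, 0.38 and 0.41 with enzalutamide + talazoparib. MXI1 departed from the sum of the single drugs, by -0.18 ± 0.06 (adjusted p = 0.0343) for abiraterone + olaparib and -0.42 ± 0.06 (adjusted p = 3.15e-06) for enzalutamide + talazoparib. Each of the 4 single drugs raised it. The departure for abiraterone + olaparib was not called without DMSO B, DMSO C, abiraterone C, any olaparib library, or combination B or C (-0.19 to -0.14). MNT changed by 0.09 ± 0.05 (adjusted p = 0.0899) with abiraterone + olaparib and 0.04 ± 0.04 (adjusted p = 0.424) with enzalutamide + talazoparib.

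Ribosome biogenesis genes fell with both ARPi. With abiraterone 27 of 33 fell and 1 rose, and with the 6 network genes included 29 of 39 members were lower and 3 higher, where 27.1% and 25.8% of all 18625 genes tested were lower and higher. The members' median change was -0.22, against a median near 0 over all genes. With enzalutamide 30 of 33 biogenesis genes fell. Over the 39 members this came to 35 lower and 1 higher with a median of -0.32, beside 26.3% and 27% of all genes. With total count scaling in place of TMM the abiraterone split was 22 lower and 6 higher. In bulk RNA, fewer cells of a kind and less RNA per cell cannot be told apart. Of 15 proliferation markers 5 were lower and 3 higher with abiraterone (median -0.05), and 1 lower and 4 higher with enzalutamide (median 8.43e-04), and their part in the results was not tested.

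**Figure D2:**
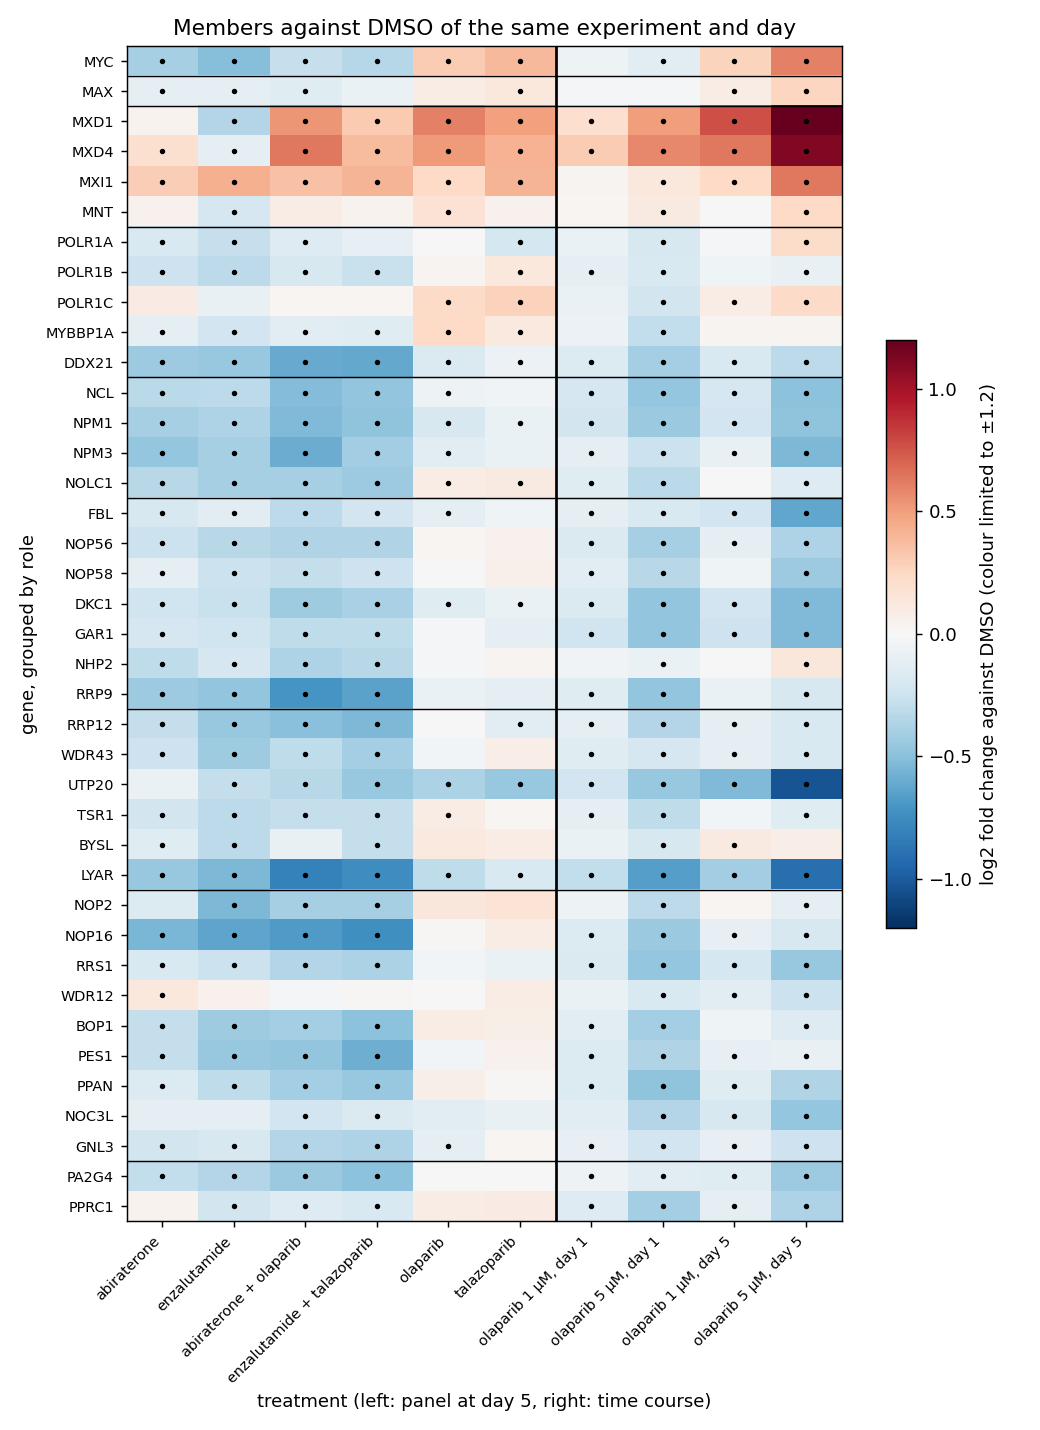
Log2 fold change against the matched DMSO group for the 39 tested members (rows, by role) in 10 treatments (columns), with a dot where the adjusted p is under 0.05 and the colour scale limited at both ends. The 33 biogenesis rows are mostly lower in the ARPi, combination and time course columns, while the rows of MXD1, MXD4 and MXI1 are mostly higher.

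Among the members, genes of every nucleolar role fell with ARPi. All 4 chaperones fell with each ARPi, led by NPM3 with abiraterone, from 47.95, 48.5 and 47.03 to 34.7, 34.3 and 34.95 CPM (-0.46 ± 0.05), and by NPM3 and NOLC1 with enzalutamide (-0.40 ± 0.05 and -0.40 ± 0.02). All 7 snoRNP proteins fell too, led with both drugs by RRP9, a protein of the snoRNP that directs early cleavage of the pre-rRNA (-0.44 ± 0.06 and -0.48 ± 0.06). In small subunit processing 5 of 6 fell with abiraterone and 6 of 6 with enzalutamide. The leader was LYAR, a nucleolar zinc finger protein of growing cells, which had 37.4, 42 and 46.8 CPM in DMSO, 32.4, 29.6 and 30.4 with abiraterone and 26.9, 30.7 and 28.99 with enzalutamide. The DMSO libraries of LYAR were spread but lay above all treated ones (-0.46 ± 0.06 and -0.54 ± 0.06).

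In large subunit processing 6 of 9 fell with abiraterone and 7 of 9 with enzalutamide. NOP16, which acts in assembly of the large subunit, showed the largest change of any biogenesis member under each ARPi. It dropped from 52.9, 55.01 and 56.2 CPM to 36.8, 37.7 and 38.2 (-0.54 ± 0.04, adjusted p = 4.10e-14) and 34.7, 34.7 and 36.7 (-0.63 ± 0.04, adjusted p = 6.35e-16). NOP2 fell with enzalutamide (-0.54 ± 0.09, adjusted p = 7.34e-05) and changed by -0.16 ± 0.09 (adjusted p = 0.136) with abiraterone. WDR12, named here after its values were seen, was the biogenesis gene that rose with abiraterone (0.13 ± 0.04, adjusted p = 0.00321), although its partners PES1 and BOP1 in the same assembly complex fell (-0.28 and -0.28). Of the RNA polymerase I genes 4 of 5 fell with each drug, led by the helicase DDX21 (-0.44 ± 0.03 and -0.46 ± 0.03). POLR1C, a subunit that RNA polymerases I and III share, did not pass the threshold with either (0.09 ± 0.05, adjusted p = 0.0970 and -0.09 ± 0.05 (adjusted p = 0.130)). The growth-linked PA2G4 fell with both (-0.30 ± 0.02 and -0.35 ± 0.02).

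**Figure D3:**
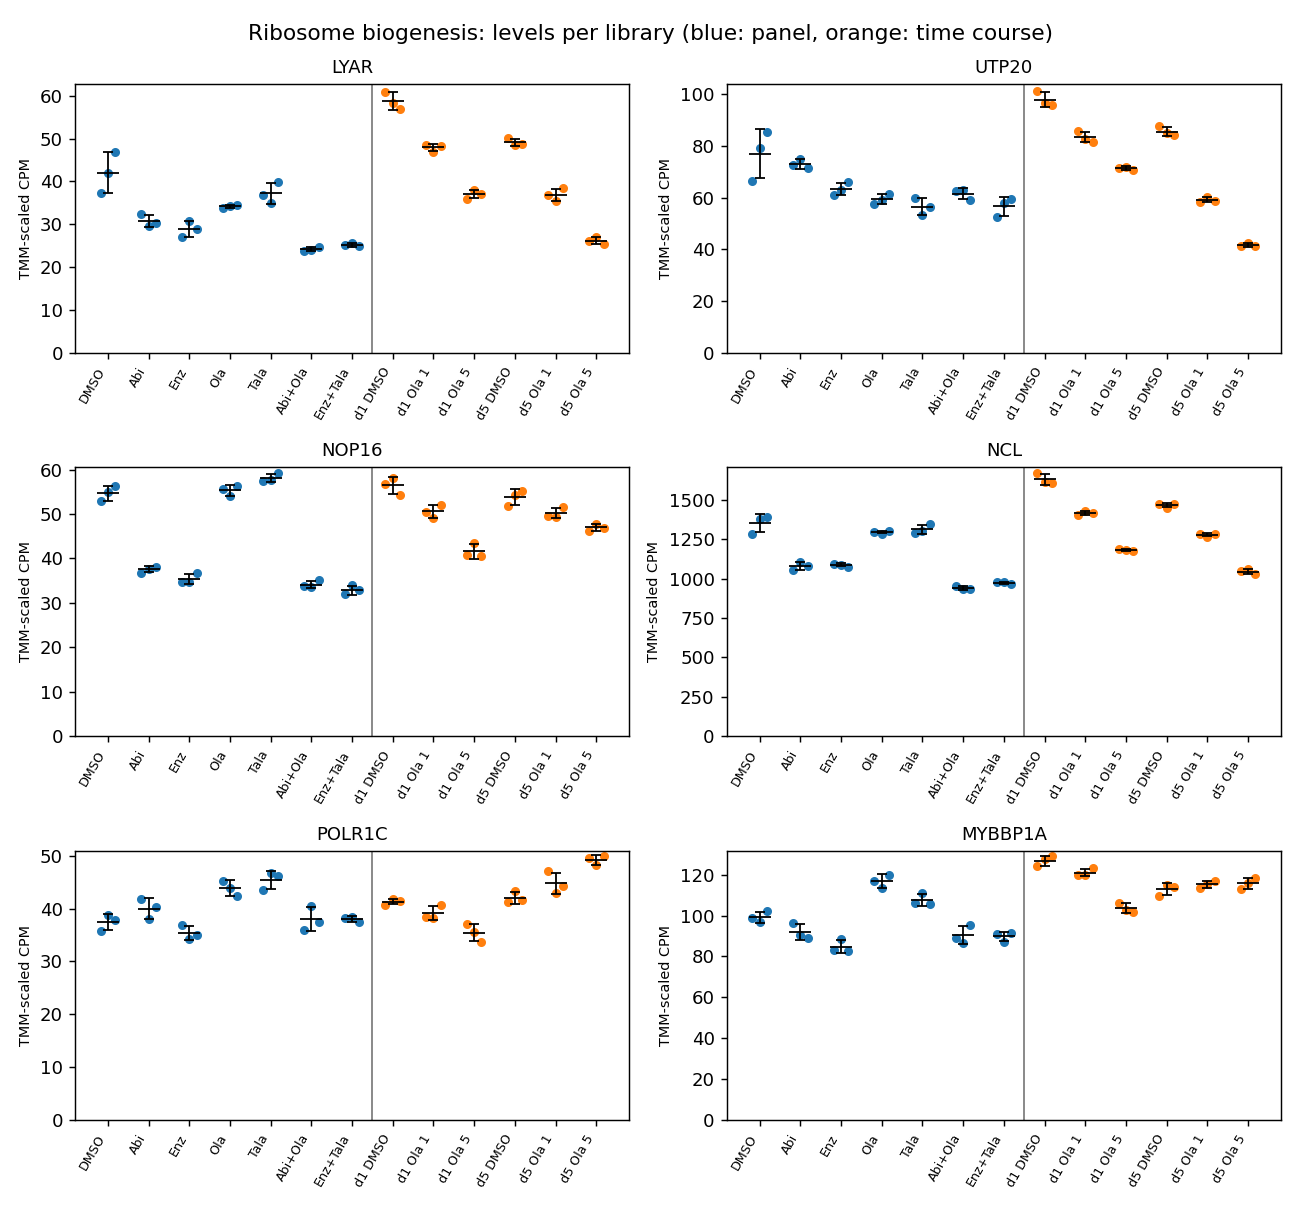
Levels (TMM-scaled CPM) of LYAR, UTP20, NOP16, NCL, POLR1C and MYBBP1A in every library of the 13 groups, with points for libraries and bars for the mean ± SD (n = 3), panel in blue and time course in orange. NOP16 is low in the 4 groups that hold an ARPi, UTP20 is lowest with 5 µM olaparib at day 5 (41.2 to 42.5 CPM), and POLR1C is highest in that same group.

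PARPi alone at 5 days split the members. With olaparib 9 of 39 were lower and 9 higher, beside 16% and 19.6% of all genes, with a median change of 0.01. With talazoparib 7 were lower and 9 higher, beside 15.4% and 18.4%, with a median of 0.05. As shares of 39 these counts were not far from the background. The split moved with scaling, to 11 lower and 7 higher for olaparib (median -0.04) and 12 lower and 6 higher for talazoparib (median 0.00231) with total count scaling, and the talazoparib count of lower genes was 3 without DMSO C. Of the higher genes, 5 were in the MYC network in each comparison.

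UTP20, a large scaffold protein of the small subunit processome, led the biogenesis genes that fell with PARPi. It had 66.5, 79.4 and 85.3 CPM in DMSO, 57.7, 59.04 and 61.5 with olaparib (-0.38 ± 0.07, adjusted p = 3.16e-04) and 59.8, 53.2 and 56.4 with talazoparib (-0.45 ± 0.07, adjusted p = 5.74e-05). The groups did not overlap, although DMSO was widely spread. LYAR fell with olaparib (-0.31 ± 0.06) and with talazoparib (-0.18 ± 0.06), where its libraries, at 36.8, 35.01 and 39.9 CPM, overlapped those of DMSO. Of the 4 chaperones 3 fell with olaparib and 1 with talazoparib. NPM1 changed by -0.19 ± 0.02 with olaparib and -0.08 ± 0.02 with talazoparib, and NOLC1 rose with both (0.09 ± 0.02 and 0.11 ± 0.02). The RNA polymerase I genes moved both ways. POLR1C rose from 35.7, 38.7 and 37.9 CPM to 45.3, 43.99 and 42.4 with olaparib (0.23 ± 0.05) and 43.6, 46.7 and 46.2 with talazoparib (0.28 ± 0.05). MYBBP1A, a nucleolar repressor of RNA polymerase I transcription, rose with olaparib (0.24 ± 0.04) and talazoparib (0.12 ± 0.04), and POLR1A, the catalytic subunit, fell with talazoparib (-0.21 ± 0.05, adjusted p = 6.68e-04) while its change with olaparib was 0.00125 ± 0.05 (adjusted p = 0.988). With talazoparib 0 of 9 large subunit processing genes passed the threshold in edgeR or DESeq2, with 2 higher at an unadjusted p under 0.05 in edgeR, and 1 of 9, GNL3, fell with olaparib (-0.11 ± 0.03). GNL3 (nucleostemin) is also 1 of the 6 members that differed upward between the 2 PARPi, described next. All 15 proliferation markers fell with each PARPi, by a median of -0.34 with olaparib and -0.42 with talazoparib, and their part in these results was not tested.

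Drugs of the same class were set side by side, although their doses differed (20 µM enzalutamide and 5 µM abiraterone, 10 nM talazoparib and 1 µM olaparib). Enzalutamide libraries were lower than abiraterone libraries for 17 of 39 members and higher for 2, beside 10.1% and 9.78% of all genes. The count of lower genes was 10 without abiraterone A, 11 without abiraterone B and 11 without enzalutamide A, and the higher genes, MXI1 and NHP2, numbered 0 or 1 on leaving out any 1 of abiraterone A, B and C and enzalutamide A and B. NOP2 (-0.38 ± 0.09), PPRC1, a coactivator linked to growth and mitochondria (-0.26 ± 0.04), and UTP20 (-0.20 ± 0.07, a call lost on leaving out each of the 6 libraries in turn, -0.23 to -0.18) led the biogenesis genes, and MXD1 (-0.39 ± 0.10), MXD4 (-0.31 ± 0.04) and MNT (-0.25 ± 0.05) were the lower network genes. MXI1 was higher (0.13 ± 0.04, adjusted p = 0.0198), a call lost without abiraterone A or B or enzalutamide A or B (0.10 to 0.13), and MAX did not pass (4.78e-04 ± 0.05, adjusted p = 0.998). MYC differed by -0.11 ± 0.06 between the ARPi (95% interval -0.23 to 0.01, adjusted p = 0.260). Talazoparib libraries were lower than olaparib libraries for 2 members and higher for 6, beside 5.25% and 3.11%. POLR1A (-0.21 ± 0.05) and MYBBP1A (-0.12 ± 0.04) were the lower pair, and 1 of these was left without olaparib A, olaparib C, talazoparib B or talazoparib C. MYBBP1A was not called without those or talazoparib A (-0.14 to -0.10). The largest upward difference was that of MXI1 (0.17 ± 0.04, adjusted p = 0.00772), a call lost without talazoparib B (0.14), and GNL3 led the higher biogenesis genes (0.13 ± 0.03). The number of higher members was 3 without talazoparib B or C. MXD1 (-0.11 ± 0.09, adjusted p = 0.489), MXD4 (-0.09 ± 0.03, adjusted p = 0.0878) and MAX (0.03 ± 0.04, adjusted p = 0.766) did not pass. For MYC the difference between the PARPi was 0.08 ± 0.06 (95% interval -0.03 to 0.20, adjusted p = 0.459).

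With the combinations the nucleolar genes were mostly low. Abiraterone + olaparib against DMSO gave 32 of 39 members lower and 3 higher (median -0.33), beside 31.1% of all genes lower and 31.1% higher. Enzalutamide + talazoparib gave 31 lower and 3 higher (median -0.36), beside 31.3% and 31.2%. The 3 higher genes in each were MXD1, MXD4 and MXI1. LYAR showed the largest drop with both, to 23.8, 23.9 and 24.8 CPM (-0.81 ± 0.06, adjusted p = 6.88e-13) and 25.04, 25.7 and 24.9 (-0.74 ± 0.06, adjusted p = 2.15e-12). RRP9 followed with abiraterone + olaparib (-0.71 ± 0.06), ahead of NOP16 (-0.68 ± 0.04) and DDX21 (-0.60 ± 0.03). NOP16 stood beside LYAR with enzalutamide + talazoparib (-0.74 ± 0.04), ahead of RRP9 (-0.64 ± 0.06) and DDX21 (-0.62 ± 0.03). Of the 15 proliferation markers 12 and 10 fell with these combinations, and their part was not tested.

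Adding a PARPi to an ARPi was then read directly. Abiraterone + olaparib differed from abiraterone alone by 21 lower and 2 higher members (median -0.13), beside 14.7% and 14.4% of all genes, the higher pair being MXD1 (0.49 ± 0.09) and MXD4 (0.45 ± 0.04). LYAR (-0.35 ± 0.06), RRP9 (-0.27 ± 0.06) and UTP20 (-0.25 ± 0.07) led the lower genes, and UTP20 was not called without abiraterone B or combination C (-0.23 to -0.22). MXI1 (0.06 ± 0.04, adjusted p = 0.338), MNT (0.04 ± 0.05, adjusted p = 0.564) and MAX (-0.03 ± 0.05, adjusted p = 0.642) did not pass. Enzalutamide + talazoparib differed from enzalutamide alone by 14 lower and 5 higher members, beside 17.9% and 16.5%, led among the biogenesis genes by LYAR (-0.20 ± 0.06), POLR1A (0.18 ± 0.05) and GNL3 (-0.18 ± 0.03). Without enzalutamide B or combination C the lower genes numbered 9, and LYAR was then not called (-0.18 to -0.16). Besides POLR1A the higher genes were all of the network, MXD1 (0.67 ± 0.09), MXD4 (0.49 ± 0.04), MNT (0.24 ± 0.04) and MYC, while MXI1 (-0.01 ± 0.04, adjusted p = 0.851) and MAX (0.03 ± 0.04, adjusted p = 0.692) did not pass. Of 15 proliferation markers 12 fell in the first contrast (median -0.38) and 12 in the second (median -0.31), and their part was not tested.

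Departures from the sum of the single drugs, tested as an interaction on the log2 scale, were mostly downward for abiraterone + olaparib. There 15 of 39 members were below the sum and 0 above it, beside 8.08% and 4.74% of all genes. At an unadjusted p under 0.05 edgeR also gave 0 above the sum, and DESeq2 called 0. PPAN, a large subunit assembly factor (-0.31 ± 0.06), POLR1C (-0.30 ± 0.07) and PPRC1 (-0.28 ± 0.06) led. The count of lower genes was 9 without olaparib B, olaparib C or combination A, and without DMSO A there was 1 higher gene. For enzalutamide + talazoparib 8 members were below and 2 above, beside 7.28% and 5.32%, with POLR1A above the sum (0.39 ± 0.07, adjusted p = 1.72e-04) and GNL3 (-0.20 ± 0.04) and NOP16 (-0.19 ± 0.05) below. NOP16 was not called without enzalutamide C, talazoparib B, talazoparib C, combination A or combination C (-0.17 to -0.15). That count of lower genes was between 3 and 5 on leaving out any 1 of the 3 talazoparib and 3 combination libraries. The higher pair, POLR1A and MNT (0.19 ± 0.06), numbered 1 without DMSO C, any of the 3 enzalutamide libraries, talazoparib C or combination C, and 3 without talazoparib A. MNT was also not called without DMSO A (0.16 to 0.20 over the libraries that ended its call). The departures of MXD1, MXD4 and MAX did not pass for either combination, at -0.11, -0.06 and -0.13 for abiraterone + olaparib and 0.17, 0.08 and -0.10 for enzalutamide + talazoparib, nor did that of MNT for abiraterone + olaparib (-0.13).

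In the time course the nucleolar genes were already lower after 1 day of olaparib, when MYC had moved little. With 1 µM at day 1, 25 of 39 members were lower and 2 higher (median -0.12), beside 9.52% and 6.3% of 18502 genes. All 25 lower genes were of ribosome biogenesis, led by LYAR (-0.29 ± 0.03, adjusted p = 3.08e-08), the snoRNP protein GAR1 (-0.24 ± 0.05) and UTP20 (-0.23 ± 0.03). The higher genes were MXD4 (0.31 ± 0.03) and MXD1 (0.20 ± 0.06, adjusted p = 0.0321), and the latter call was lost without DMSO 2, DMSO 3, or library 1 or 2 of the 1 µM group (0.16 to 0.20). MYC had 134, 136 and 139.5 CPM in DMSO and 129, 132 and 131 with 1 µM (-0.06 ± 0.03, adjusted p = 0.0948). MXI1 (0.03 ± 0.03, adjusted p = 0.507), MNT (0.03 ± 0.04, adjusted p = 0.712) and MAX (-0.02 ± 0.03, adjusted p = 0.772) did not pass either. Of the 15 proliferation markers 8 fell and 2 rose (median -0.10), and their part was not tested.

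With 5 µM at day 1 all 33 biogenesis genes fell. Over the 39 members 34 were lower and 4 higher (median -0.31), beside 23.4% and 21.6% of all genes. LYAR went from 60.98, 58.3 and 56.8 CPM to 36, 38.1 and 37.1 (-0.66 ± 0.03, adjusted p = 2.72e-18), with the 1 µM libraries between at 48.4, 46.97 and 48.4. PPAN (-0.48 ± 0.04) and GAR1 (-0.48 ± 0.05) came next, the leading chaperone was NCL (-0.46 ± 0.02), and DDX21 (-0.40 ± 0.02) and PPRC1 (-0.41 ± 0.03) led their roles. MYC fell to 127, 125 and 123 CPM (-0.13 ± 0.03, adjusted p = 7.75e-05), below every DMSO library. The 4 genes that rose were the repressors, MXD4 by 0.58 ± 0.03, MXD1 by 0.50 ± 0.06, MXI1 by 0.12 ± 0.03 and MNT by 0.11 ± 0.04. The MNT call was lost without DMSO 1 or library 1 or 2 of the 5 µM group (0.08 to 0.09), and MAX changed by -0.02 ± 0.03 (adjusted p = 0.588). Between the doses at day 1, 30 members were lower and 3 higher at 5 µM than at 1 µM, beside 15.9% and 12.8%. LYAR (-0.37 ± 0.04), RRP9 (-0.33 ± 0.04) and PPAN (-0.32 ± 0.04) led the lower genes. The higher genes were MXD1 (0.31 ± 0.06), MXD4 (0.27 ± 0.03) and MXI1 (0.09 ± 0.03, adjusted p = 0.0195), the last not called without 1 µM library 1 or 3 or 5 µM library 2 or 3 (0.08 to 0.09). MYC (-0.07 ± 0.03, adjusted p = 0.0518), MNT (0.08 ± 0.04, adjusted p = 0.108) and MAX (-0.01 ± 0.03, adjusted p = 0.933) did not pass, although MYC did with RLE scaling, with DESeq2 or without 5 µM library 1. Proliferation markers were already lower with 5 µM at day 1 (11 of 15 lower and 2 higher, median -0.46), and the summed level of the 13 markers of other cell types was above DMSO at both doses without overlap. The part of neither list was tested.

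By day 5 MYC was above DMSO at both doses while most nucleolar genes were below it. MYC had 153, 151 and 151 CPM in DMSO, 187, 179 and 181 with 1 µM (0.26 ± 0.03, adjusted p = 3.58e-11) and 223, 234 and 233 with 5 µM (0.60 ± 0.03, adjusted p = 3.78e-22). The 3 groups did not overlap, and 5 µM was above 1 µM by 0.34 ± 0.02. With 1 µM 21 of 39 members were lower and 7 higher (median -0.09), beside 22.9% and 23.4% of all genes, and the split was 24 and 4 with total count scaling. The higher count was also 4 without DMSO 1 of day 5. Of the other network genes MXI1 (0.24 ± 0.03) and MAX (0.09 ± 0.03) rose at 1 µM, the MAX call being lost without DMSO 1 or 1 µM library 2 (0.07 to 0.08), and MNT changed by 0.00389 ± 0.04 (adjusted p = 0.951). MXD1 and MXD4 rose by 0.77 ± 0.06 and 0.64 ± 0.03. With 5 µM 28 were lower and 9 higher (median -0.19), beside 33.9% and 34.4%. All 6 network genes were among the higher, leaving POLR1A (0.22 ± 0.03), POLR1C (0.23 ± 0.04) and the snoRNP protein NHP2 (0.13 ± 0.03) from biogenesis. NHP2 is named after its values were seen.

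Within the time course MXD1, MXD4 and MXI1 had their highest levels in that group. MXD1 had 8.62, 8.39 and 7.80 CPM in DMSO at day 5, 13.6, 14.1 and 14.7 with 1 µM and 23.7, 24.1 and 24.8 with 5 µM (1.55 ± 0.06, adjusted p = 9.06e-24). MXD4 had 49.3, 48.1 and 49.6, 76.2, 76.04 and 76.1 and 104, 106 and 107 CPM in the same order (1.11 ± 0.03, adjusted p = 4.81e-29). In both genes the 3 groups were separate and rose with dose. MXI1 (0.63 ± 0.03), MNT (0.24 ± 0.04) and MAX (0.26 ± 0.03) rose less.

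Among the biogenesis genes UTP20 showed the largest drop with 5 µM at day 5, from 87.7, 84.9 and 84.2 CPM to 41.2, 42.5 and 41.4 (-1.04 ± 0.03, adjusted p = 4.71e-27), with 58.4, 60.3 and 58.8 at 1 µM (-0.53 ± 0.03). LYAR fell from 50.05, 48.5 and 48.7 to 26.1, 27.03 and 25.4 CPM (-0.91 ± 0.04). FBL (fibrillarin), the methyltransferase of the box C/D snoRNPs, changed by -0.62 ± 0.03. By role 9 of 9 large subunit genes, 4 of 4 chaperones, 6 of 7 snoRNP genes, 5 of 6 small subunit genes and both growth-linked regulators fell, where 33.9% of all genes were lower and 34.4% higher. Of the 5 RNA polymerase I genes 2 fell and 2 rose. Between the doses at day 5, 24 members were lower and 9 higher at 5 µM, beside 27% and 26.6%, led among the biogenesis genes by UTP20 (-0.50 ± 0.03), LYAR (-0.49 ± 0.04) and NPM3 (-0.46 ± 0.04). All 6 network genes were among the higher, from 0.17 ± 0.03 for MAX and 0.24 ± 0.04 for MNT to 0.40 ± 0.03 for MXI1, 0.48 ± 0.03 for MXD4 and 0.77 ± 0.05 for MXD1. All 15 proliferation markers fell at both doses by day 5, by a median of -0.50 at 1 µM and -2.22 at 5 µM, and their part was not tested.

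The difference between the days was tested as an interaction, with a DMSO group at each day. For MYC it was 0.33 ± 0.04 at 1 µM (adjusted p = 3.02e-09) and 0.73 ± 0.04 at 5 µM (adjusted p = 1.83e-19) as the day 5 effect minus the day 1 effect. At 5 µM, 27 members differed between the days (54.9% of all genes did), 6 with a lower and 21 with a higher effect at day 5, beside 27.7% and 27.2% of all genes. With total count scaling those counts were 16 and 13. The median over all genes went from -0.02 to -0.15, and the members' median from 0.13 to -0.00438. The counts and the sign of the members' median thus rest on the scaling. With both scalings the members' median lay above that of all genes. Relative to either centre, UTP20 (-0.58 ± 0.04) and FBL (-0.44 ± 0.03) were lower and POLR1C (0.45 ± 0.05) higher at day 5. MYC, POLR1A, POLR1C and NHP2 were the members lower at day 1 and higher at day 5, each past the threshold on both days. POLR1C went from 40.7, 41.8 and 41.5 to 37, 35.6 and 33.7 CPM at day 1 and from 41.2, 43.4 and 41.7 to 49.6, 48.2 and 49.9 at day 5. At 1 µM, 11 members differed (29.8% of all genes), 3 downward and 8 upward, beside 14.2% and 15.6%, and total count scaling made this 6 and 6 with a median of -8.89e-04 in place of 0.05. UTP20 (-0.30 ± 0.04), BYSL, a small subunit assembly factor (0.19 ± 0.06), and POLR1C (0.17 ± 0.05) led the biogenesis genes among them, and MXD1 differed by 0.58 ± 0.09. BYSL was not called without 1 µM library 3 of day 5 (0.15), nor POLR1C without library 1 of that group (0.13).

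**Figure D4:**
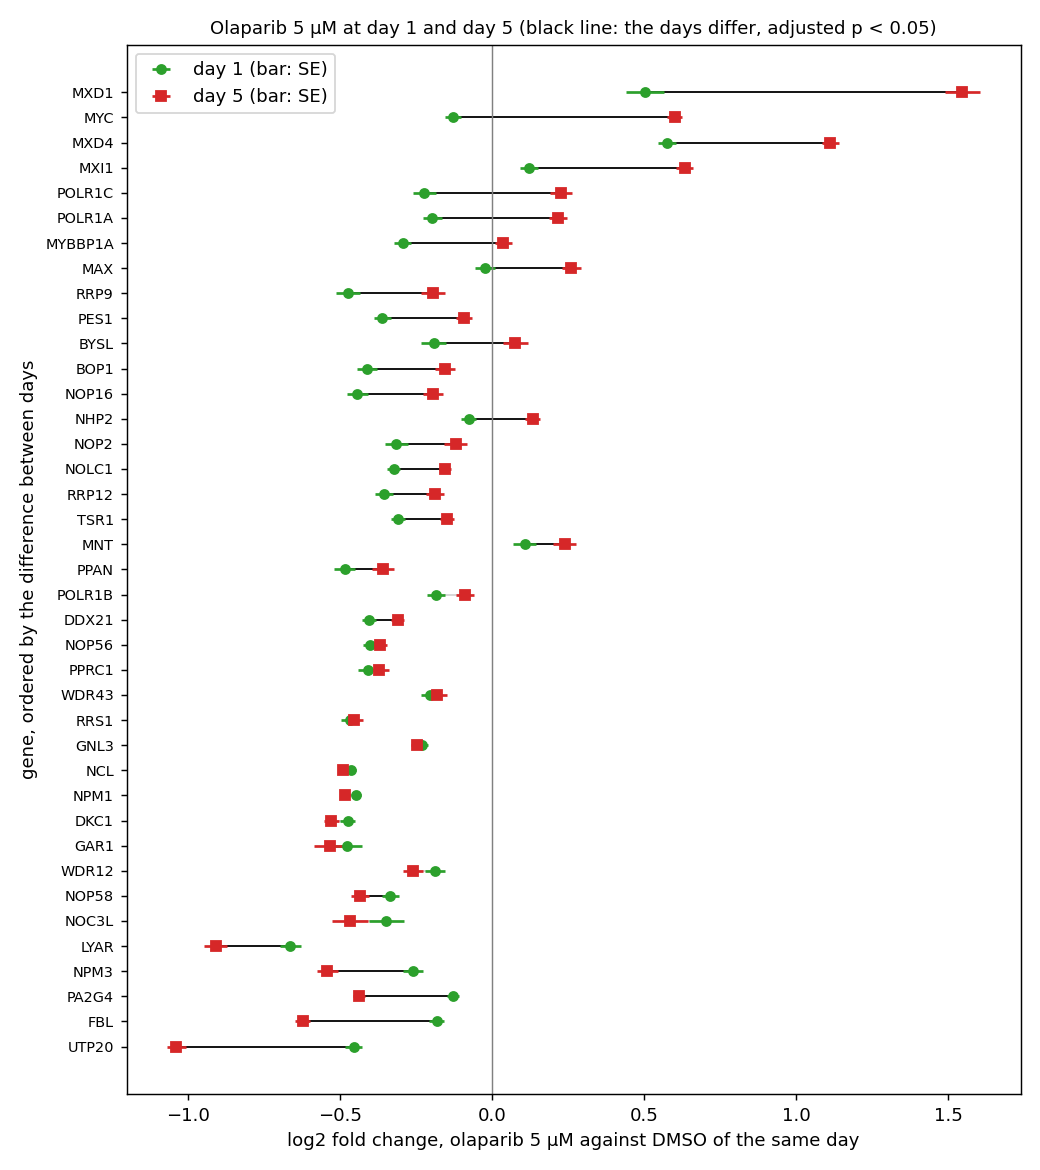
Log2 fold change ± SE with 5 µM olaparib against the DMSO group of the same day, at day 1 and day 5, for the 39 members, with a black line where the difference between the days passed the threshold. Most biogenesis genes lie below 0 on both days, whereas MYC, POLR1A, POLR1C and NHP2 cross from below to above 0, past the threshold on both days. MAX, BYSL and MYBBP1A also cross, without passing it on both days.

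Untreated cells also differed between the days. In DMSO 22 of 39 members were lower at day 5 than at day 1 and 3 were higher (median -0.08), beside 13.4% and 11.1% of all genes. LYAR (-0.26 ± 0.03), POLR1A (-0.22 ± 0.03) and GAR1 (-0.22 ± 0.05) led the lower genes. The higher genes were MYC (0.15 ± 0.03, adjusted p = 2.07e-05), MXD4 (0.21 ± 0.03) and GNL3 (0.06 ± 0.02), the last named after its values were seen. MXD1 (0.08 ± 0.07, adjusted p = 0.434), MXI1 (-0.05 ± 0.03, adjusted p = 0.201), MNT (-0.06 ± 0.04, adjusted p = 0.248) and MAX (-0.05 ± 0.03, adjusted p = 0.347) did not pass. All 15 proliferation markers were lower at day 5 in DMSO (median -0.16).

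Olaparib at 1 µM for 5 days was measured in both experiments, with separate DMSO groups. The change had the same sign in 26 of 39 members, where 78.2% of 17960 genes tested in both experiments had the same sign. Of the 39 members 9 were lower in both and 5 higher in both, beside 14% and 16.1% of those genes, and 0 members and 18 genes in all were called in opposite directions. The counts in each were 9 lower and 9 higher in the panel (median 0.01) and 21 lower and 7 higher in the time course (median -0.09). The changes in the panel and in the time course were 0.31 ± 0.06 and 0.26 ± 0.03 for MYC, 0.61 ± 0.09 and 0.77 ± 0.06 for MXD1, -0.38 ± 0.07 and -0.53 ± 0.03 for UTP20, and -0.31 ± 0.06 and -0.41 ± 0.04 for LYAR. They lay farther apart for GAR1 (-0.02 ± 0.06 and -0.25 ± 0.05), PPAN (0.07 ± 0.04 and -0.15 ± 0.04) and MYBBP1A (0.24 ± 0.04 and 0.03 ± 0.03), each called in 1 experiment only. NOLC1 (0.09 ± 0.02 and -0.01 ± 0.02) was called only in the panel, and NCL was lower in both (-0.06 ± 0.02 and -0.20 ± 0.02). MNT was called only in the panel, where its mean level was 12.4% above DMSO, against 0.182% in the time course. The difference between the experiments was not tested.

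Other genes of the same pathways were grouped by function, and each list is given by its counts, to be read against the shares of all genes called. Those were 27.1% lower and 25.8% higher with abiraterone, 26.3% and 27% with enzalutamide, 23.4% and 21.6% with 5 µM olaparib at day 1, and 33.9% and 34.4% with 5 µM at day 5. Of 38 further genes of the small subunit processome 31 fell with abiraterone, 34 with enzalutamide and 38 with 5 µM olaparib at day 1, led in the last by PNO1 (-0.50 ± 0.04) and DDX10 (-0.50 ± 0.03). Of 41 further large subunit assembly genes 33, 36 and 38 fell in those comparisons. PAK1IP1, a nucleolar protein, stood out there, with -1.97 ± 0.03 for abiraterone and -2.07 ± 0.03 for enzalutamide, and EBNA1BP2 came next with abiraterone (-0.48 ± 0.04). Of 10 further genes of snoRNP assembly 6, 6 and 7 fell, led with abiraterone by PIH1D1 (-0.39 ± 0.05) and SHQ1 (-0.35 ± 0.05). Of 18 further RNA polymerase I genes 6 fell and 3 rose with abiraterone (median -0.03), and 8 fell and 3 rose with enzalutamide (median -0.05). Of those 18 genes, 9 fell and 4 rose with 5 µM olaparib at day 5, where TCOF1 (treacle, which links RNA polymerase I to processing) changed by -1.73 ± 0.03 and TAF1A by -0.64 ± 0.07. Of 17 RNA polymerase III genes 9 fell with abiraterone, led by POLR3E (-0.55 ± 0.04), and 10 with 5 µM olaparib at day 5, led by POLR3G (-1.33 ± 0.06).

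Ribosomal protein genes moved differently from treatment to treatment. Of 78, 53 fell and 2 rose with abiraterone (median -0.10), but 14 fell and 19 rose with enzalutamide (median 0.01), and 60 were higher and 0 lower with enzalutamide than with abiraterone, beside 9.78% and 10.1% of all genes. With abiraterone + olaparib 35 fell and 13 rose, beside 31.1% and 31.1% of all genes, and with enzalutamide + talazoparib 8 fell and 40 rose, beside 31.3% and 31.2%. With 5 µM olaparib at day 1, 2 fell and 23 rose. Of 24 tested MYC target genes outside the nucleolus 22 fell with abiraterone, led by the hexokinase HK2 (-1.10 ± 0.04) and the telomerase subunit TERT (-0.85 ± 0.21). Of the same 24, 23 fell with 5 µM olaparib at day 5, when MYC RNA was up, led by TERT (-2.84 ± 0.20) and RCC1 (-1.34 ± 0.03). All 15 proliferation markers fell in that comparison too (median -2.22), and their part was not tested. Of 13 further network genes 7 fell and 3 rose with abiraterone, led by MLXIPL (0.60 ± 0.15). Of these 13, 7 fell and 4 rose with 5 µM at day 5, led by AURKA (-2.59 ± 0.04), itself a gene of dividing cells.

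**Figure D5:**
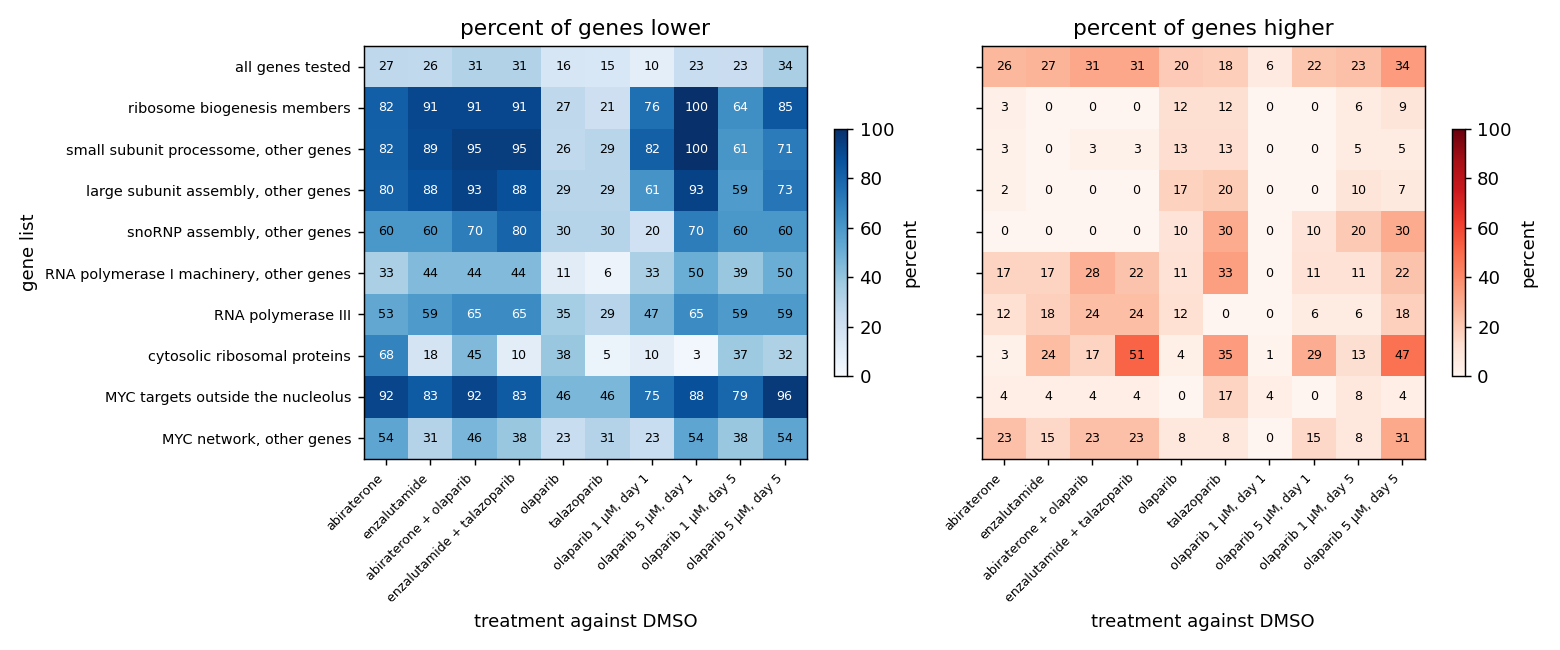
Percent of genes lower and higher (adjusted p under 0.05) in 10 treatments for all tested genes, the 33 biogenesis members and the other pathway lists. The biogenesis members and the 2 lists of further assembly genes have larger shares of lower genes than all genes with ARPi and in the olaparib time course. Ribosomal proteins vary between treatments.

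Some values are uncertain because reads may be shared. NPM1 has 49 pseudogenes named after it in the annotation and PA2G4 has 6. PPAN shares exons with the PPAN-P2RY11 readthrough gene, and MXD1 shares an exon stretch with SNRNP27 on the same strand. In all, 12 members have an exon overlap on the same strand and 17 on the opposite strand.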

How the data were processed

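RNA from C4-2B cells was sequenced from stranded poly(A) libraries. The authors trimmed reads with Trim Galore, aligned them to GRCh38 with STAR and quantified GENCODE genes with Salmon, and deposited estimated counts per gene as whole numbers. How they were rounded, and which strand setting was used, is not given in the sources used here. Symbols, positions and exon lengths came from an earlier GENCODE release, which named 62666 of the 63187 identifiers.

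Each experiment was fitted separately in edgeR 4.0.16 (R 4.3.3) with a group model, TMM scaling, filterByExpr and the robust quasi-likelihood test, leaving 18625 genes in the panel and 18502 in the time course. Benjamini-Hochberg adjustment ran over all genes tested, and an adjusted p under 0.05 was called. Scripts were tested on simulated counts. CPM used the TMM library sizes, and fold changes carry the SE of the fit. DESeq2 1.42.0 was an alternative, with other scalings, filters, sample sets, a replicate block and each library left out.

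Genes were named by a rule that took the network genes, the 3 biogenesis members with the largest change past the threshold in a comparison, and the leading member of a role where the role is described. Other members are named where a count needed them or where they led another comparison. From the other lists a leading gene or pair was named, in some comparisons only, and no ribosomal protein was named. The members, lists and tests were chosen with earlier results of these data known. Apart from MYCN, the lowest member count in a panel library was 203, for MXD1.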

Additional observations from a re-analysis of the deposited data

Results flagged for a closer look

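The effect of olaparib differed between day 5 and day 1, by an interaction test in edgeR against a DMSO group of each day. At 1 µM, 11 of 39 members differed, where 29.8% of all genes did, a share near that of the members. At 5 µM, 27 differed, where 54.9% of all genes did. With total count scaling the members split into 6 lower and 6 higher at 1 µM, in place of 3 and 8, and into 16 and 13 at 5 µM, in place of 6 and 21. In these differences a positive value means a higher effect at day 5. In the MYC network the differences at 1 µM were 0.33 for MYC, 0.58 for MXD1, 0.33 for MXD4 and 0.20 for MXI1. At 5 µM they were 0.73 for MYC, 0.29 for MAX, 1.04 for MXD1, 0.54 for MXD4, 0.51 for MXI1 and 0.13 for MNT, whose call was lost without DMSO 2 or 3 or 5 µM library 3 of day 1, or DMSO 1 or 2 or 5 µM library 1 or 2 of day 5 (0.10 to 0.14). Among biogenesis genes the differences at 1 µM were -0.30 for UTP20, 0.19 for BYSL and 0.17 for POLR1C. At 5 µM they were -0.58 for UTP20, 0.45 for POLR1C and -0.44 for FBL. The proliferation markers differed in the same tests, with 14 of 15 lower at 1 µM and 15 of 15 at 5 µM, and their part was not tested. Leaving out each library in turn shows which calls rest on 1 library. Groups of 3 libraries are too small to tell an outlying library from ordinary spread.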

How the results depend on the processing

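No called change of a named gene reversed its sign under the alternatives tried. The members' median did change sign with total count scaling, from 0.01 to -0.04 for olaparib, from 0.05 to -8.89e-04 for the day difference at 1 µM and from 0.13 to -0.00438 for that at 5 µM. The median over all genes moved down as well, from 0.0154 to -0.0252, from 0.00106 to -0.0472 and from -0.0223 to -0.153 in the same order. Of 42 counts, 40 with no filter, 42 with a minimum count of 50 and 42 with RLE scaling stayed within 1.5 times the value given. Under total count scaling 34 did. The exceptions there were 6 members higher with abiraterone, 2 higher with enzalutamide, 12 lower with talazoparib, 1 higher with enzalutamide than abiraterone, 4 higher with 1 µM olaparib at day 5, 6 with a lower effect at day 5 than at day 1 for 1 µM, and 16 lower and 13 higher for 5 µM. Talazoparib gave 4 lower members with no filter and 4 when only the groups compared entered the fit. The comparison of enzalutamide with abiraterone gave 1 higher member with no filter and 1 with only the groups compared. The higher departures numbered 1 for enzalutamide + talazoparib with the replicate block and with only the groups compared, and 1 higher member for 1 µM olaparib at day 1 with DESeq2 and with only the groups compared.

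Leaving out each library in turn gave ranges of 3 to 10 lower with talazoparib, 9 to 13 lower for enzalutamide + talazoparib against enzalutamide, and 10 to 16 lower and 0 to 2 higher for enzalutamide against abiraterone. For talazoparib against olaparib they were 1 to 2 lower and 3 to 5 higher. Departures from the sum ranged from 9 to 15 lower and 0 to 1 higher for abiraterone + olaparib and from 3 to 8 lower and 1 to 3 higher for enzalutamide + talazoparib. For 1 µM olaparib the higher members ranged from 1 to 2 at day 1 and from 4 to 7 at day 5.

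The replicate block changed no other count by over 1.5 times, for example 29 lower and 3 higher with abiraterone. The labels do not pair the libraries: correlations of same-labelled deviations ran from -0.0686 to 0.0636 over 63 pairs in the panel and from -0.133 to 0.116 over 45 pairs in the time course, and 3 of 21 and 3 of 18 libraries were closest to their own label. MXD1 had the lowest counts of the members tested, and MYCN, with at most 1 count in a library, could not be measured at this depth.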
